A study of Mus musculus with 12 samples.

Results

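Interleukin receptors and related cytokine receptors were followed in blood stem and progenitor cells of mice with and without the transcription factor NFAT5. The members are 39 receptor genes listed by symbol, and each was read from the probe set with the highest mean that the array's annotation gives that symbol. Of these 39, 35 had a named probe set among the 19494 genes of the table, 24 lay above the filter on low values and were tested, and 11 lay below it. No named probe set was found for Il1rl1, Il2rg, Csf2rb2 and Il11ra1, which are not analysed here.

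RNA came from 3 control mice, Nfat5 +/+ with Vav-Cre (WT, mice 3, 12 and 64), and 3 mice with both loxP-flanked Nfat5 alleles and Vav-Cre (Nfat5 fl/fl, KO, mice 2, 11 and 70). Cre was therefore carried by the controls too. The Vav promoter drives it throughout the haematopoietic system, so deletion is intended in all blood lineages and not in the sorted cells alone. Other lineages were not measured here. From the bone marrow of each mouse, hematopoietic stem cells (HSC) were sorted as CD48-CD150+ and multipotent progenitors (MPP) as CD48+CD150-, both within LSK, the Lineage-negative Sca-1+ Kit+ compartment. This gave 12 arrays in 4 groups of 3. The mice were untreated and in steady state, and the sources used here give neither age nor sex.

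As background, most interleukin receptors pair a chain that recognises the ligand with a chain shared between several receptors, such as the common gamma chain, the common beta chain, gp130 or the IL-10 receptor beta chain. Type I and class II cytokine receptors signal through Janus kinases and STAT factors, whereas receptors of the IL-1 and IL-18 family signal through the adaptor MyD88 and IL-17 receptors through the adaptor Act1, both towards NF-kB. In bone marrow, IL-1 is known to drive stem cells towards myeloid output, and IL-7 is required for lymphocyte development. How much of each receptor messenger RNA stem cells and their progeny carry bears on which of these ligands they could sense.

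Of the 7 receptor genes lower in HSC than in MPP (2.92% of all genes were), 3 lie within 1 run of receptor genes on chromosome 1. Such runs are common among the listed receptors, with 20 of the 39 standing in 8 of them, so the position is given as description only. Il18r1, in this run, entered the test only through its MPP values. In the gene order of GRCm38.p6, Il1r2, Il1r1, Il1rl2, Il1rl1, Il18r1 and Il18rap form an unbroken run of 6 receptor genes. The RefSeq windows around their starts (GRCm38.p6, 250 bases before to 50 bases after the start, 5′ to 3′ on the gene's strand) are printed for those 3 and for Il17rb, whose window differs from theirs in composition. Capitals mark the searched motifs on either strand. GGAAGT is an ETS core, read as ACTTCC on the other strand. TGTGGT is a RUNX core, read as ACCACA, and TGGAAA an NFAT core that NFAT5 shares, read as TTTCCA.
Il1r1, chr1:40224830-40225129, plus strand, first of 2 windows: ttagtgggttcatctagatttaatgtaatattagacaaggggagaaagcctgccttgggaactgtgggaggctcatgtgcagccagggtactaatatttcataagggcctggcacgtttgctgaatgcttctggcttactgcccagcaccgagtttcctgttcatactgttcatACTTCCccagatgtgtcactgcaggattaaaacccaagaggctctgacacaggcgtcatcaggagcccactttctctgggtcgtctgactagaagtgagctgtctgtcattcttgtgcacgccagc
Il18r1, chr1:40465302-40465601, plus strand, first of 3 windows: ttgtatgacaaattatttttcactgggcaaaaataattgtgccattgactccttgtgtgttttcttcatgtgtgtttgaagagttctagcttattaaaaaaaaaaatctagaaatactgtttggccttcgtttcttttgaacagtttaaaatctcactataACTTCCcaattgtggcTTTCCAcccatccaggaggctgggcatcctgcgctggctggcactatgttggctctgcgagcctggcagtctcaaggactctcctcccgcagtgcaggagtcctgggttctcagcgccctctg
Il18rap, chr1:40515112-40515411, plus strand: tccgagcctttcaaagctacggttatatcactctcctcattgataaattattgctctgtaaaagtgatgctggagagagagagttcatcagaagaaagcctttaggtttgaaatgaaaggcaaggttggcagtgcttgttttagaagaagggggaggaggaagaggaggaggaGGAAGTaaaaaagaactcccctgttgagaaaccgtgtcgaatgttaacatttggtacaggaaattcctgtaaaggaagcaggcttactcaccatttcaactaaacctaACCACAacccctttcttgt
Il17rb, chr14:30008847-30009146, minus strand: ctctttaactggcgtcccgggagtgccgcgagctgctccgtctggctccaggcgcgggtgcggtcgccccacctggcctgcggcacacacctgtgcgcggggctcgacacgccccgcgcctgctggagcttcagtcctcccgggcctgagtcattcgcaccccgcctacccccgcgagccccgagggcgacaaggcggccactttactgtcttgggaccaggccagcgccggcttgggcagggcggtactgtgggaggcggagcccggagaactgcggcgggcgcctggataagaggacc

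The 3 windows of chromosome 1 lay below the median of all windows in GC and CpG, with 49.3% GC and 5 CpG dinucleotides at Il1r1, 44.7% and 5 at Il18r1, and 42.3% and 4 at Il18rap. The Il17rb window held 72% GC and 32 CpG, and the Il4ra window (chr7:125552021-125552320, plus strand) 62% and 25, against medians of 52.7% and 7 over all 32851 windows of 300 bases. Each window of the chromosome 1 trio held a single GGAAGT match, starting at -76 from the gene start in Il1r1, -89 in Il18r1 and -77 in Il18rap. That motif stood in 11 of the 27 members with a window (40.7%) and in 23.8% of all windows. The TGGAAA core stood in 6 of 27 (22.2%, against 21.4% of all windows), among them Il18r1. TGTGGT stood in 4 of 27 members, one of them Il18rap (14.8%, against 16.8%). The core bound by GATA factors, written AGATAA, stood in 6 of 27 (22.2%, against 11.2%), and the STAT site TTCNNNGAA in 3 of 27 (11.1%, against 8.30%). Matches of different motifs did not overlap in the 5 windows described. A match describes the letters and is not evidence of binding. Il10rb and Il17ra had no entry.

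Of the genes of the gate markers, Slamf1 (CD150) was higher in HSC (2.36, HSC minus MPP, adjusted p = 0.000359 by limma) and Cd48 lower (-3.00, 1.59e-05). The mean log2 value of 7 HSC markers was 7.31 to 8.17 in HSC arrays and 6.50 to 6.82 in MPP arrays, and that of 5 MPP markers was 6.03 to 6.97 and 10.20 to 10.36. Of these, 3 of the 7 HSC markers passed higher in HSC and all 5 MPP markers passed lower, where 1.93% and 2.92% of all genes did. Slamf1 and Cd48 belong to these lists although the sort itself selected on them. Dntt, with a mean of 3.83 in HSC, under the filter value of 4.96, entered the test only through MPP. The calls of Slamf1, Cd48 and Dntt therefore add nothing to these counts as support. Procr, Fgd5, Hoxb5 and Ctnnal1 did not pass. Nfat5 read 8.27 to 8.99 in WT and 7.34 to 7.89 in KO HSC, and 7.82 to 8.28 in WT and 6.99 to 7.45 in KO MPP, without overlap. Of all genes, 8.87% did not overlap between KO and WT in HSC and 9.49% in MPP. Array medians lay between 5.81 and 5.91. In HSC of KO mouse 2 the array was the noisiest, with a spread of deviations from its group mean of 0.438 (SD over genes, log2) against 0.276 to 0.378 for the other 11 arrays. Each comparison was repeated without it.

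HSC carried less messenger RNA for 7 of the 24 tested receptors than MPP, and more for 0. The lower ones were Il1r1, Il18r1 and Il18rap of the IL-1 family, Il17ra and Il17rb of the IL-17 family, Il10rb of the class II family and Il4ra of the common gamma group. These are calls of limma over both genotypes at an adjusted p under 0.05, Benjamini-Hochberg over 14620 genes. Among all genes tested, 2.92% were lower in HSC, 1.93% higher and 4.85% either in that comparison. Il18r1 and Il17rb entered the test only through their MPP values, so their calls add nothing to that count as support. The median difference over the 24 receptors was -0.41 (log2, HSC minus MPP), with 17 below 0 and 7 above, and over all genes it was 0.05. Values of HSC and MPP did not overlap between the 6 arrays of each population for 6 receptors, 5 lower in HSC (background 2.36%) and 1 higher (background 1.85%, 4.21% in either direction). Il18r1 and Il17rb are among those 5 and add nothing to that count as support either. In bulk RNA, a smaller share of cells carrying a transcript and less of it per cell cannot be told apart.

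**Figure D1:**
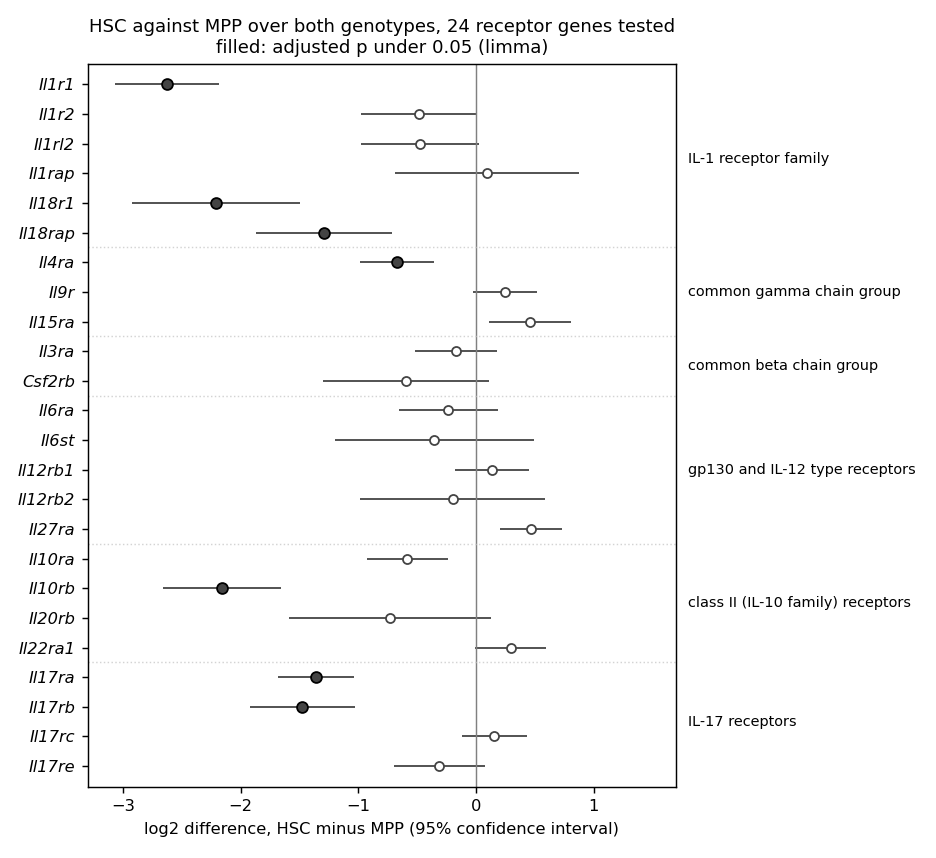
Differences between HSC and MPP (log2, HSC minus MPP, over both genotypes) of the 24 receptor genes tested, with 95% confidence intervals from limma. Differences run from -2.63 for Il1r1 to 0.46 for Il27ra, and the 7 that passed all lie below 0.

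The IL-1 family held the largest difference. Il1r1, the signalling receptor for IL-1, read 7.67, 7.97 and 7.02 in HSC of WT mice 3, 12 and 64, and 7.28, 7.83 and 6.83 in HSC of KO mice 2, 11 and 70. In MPP it read 10.11, 10.27 and 10.03 in WT and 9.80, 10.25 and 9.90 in KO, in the same order of mice. All HSC arrays lay below all MPP arrays. The difference was -2.63 (SE 0.20, 95% interval -3.07 to -2.18), a 6.18-fold lower level in HSC (adjusted p = 4.64e-05 by limma), and it ran from -3.07 to -2.30 within the 6 mice.

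Il18r1, the ligand-binding chain of the IL-18 receptor, read 3.92, 4.86 and 4.27 in WT HSC and 3.36, 3.84 and 4.02 in KO HSC. MPP values were 5.20, 7.30 and 6.75 in WT and 6.03, 6.33 and 5.90 in KO. The populations did not overlap, and WT MPP spread most, with WT mouse 3 the lowest MPP array. The difference was -2.21 (SE 0.32, interval -2.92 to -1.50, adjusted p = 0.00288 by limma). All HSC values lay under the filter value of 4.96, which the gene's mean passed only through MPP, so its HSC level is not well measured and no fold is given.

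Its partner Il18rap, the accessory chain that lets the IL-18 receptor signal, read 5.42, 5.73 and 5.77 in WT HSC and 7.25, 6.05 and 6.43 in KO HSC. MPP values were 7.14, 7.97 and 8.13 in WT and 6.47, 7.58 and 7.14 in KO. WT arrays separated the populations, whereas the HSC array of KO mouse 2 lay above that mouse's MPP array. Over both genotypes the difference was -1.30 (SE 0.26, interval -1.87 to -0.72; 2.45-fold; adjusted p = 0.0171 by limma), and it was below 0 in 5 of 6 mice. The call ended with the mouse as a block (adjusted p = 0.0680) and without mouse 11, 12, 64 or 70 (-1.03, -1.26, -1.23 and -1.24, adjusted p 0.0730, 0.0849, 0.0855 and 0.0783). Without the HSC array of KO mouse 2 it was -1.46 (adjusted p = 0.00797).

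The other 3 tested genes of the family did not pass. Il1r2, the decoy receptor for IL-1, differed by -0.49 (interval -0.98 to 0.00, adjusted p = 0.256) and Il1rl2, the IL-36 receptor, by -0.47 (interval -0.97 to 0.02, adjusted p = 0.278), each lower in HSC in 5 of 6 mice. Il1rap, the accessory chain shared by IL-1, IL-33 and IL-36 receptors, differed by 0.09 with a wide interval of -0.69 to 0.87 and was higher in HSC in 3 of 6 mice. On chromosome 1, therefore, Il1r1, Il18r1 and Il18rap passed, and the 2 other measured genes of the run, Il1r2 and Il1rl2, did not.

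**Figure D2:**
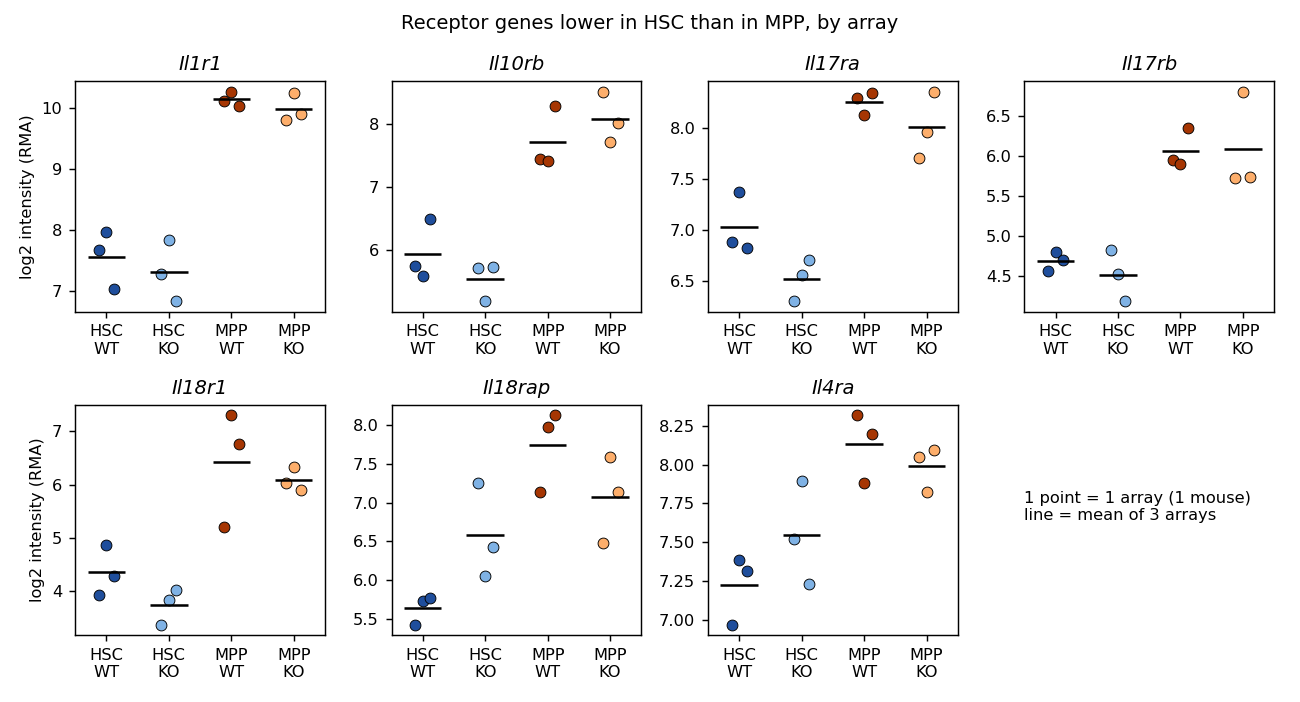
Log2 value on each of the 12 arrays for the 7 receptor genes lower in HSC than in MPP, by population and genotype. For Il1r1, Il18r1, Il10rb, Il17ra and Il17rb all HSC arrays lie below all MPP arrays, whereas HSC of KO overlaps with MPP for Il18rap and Il4ra.

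Both IL-17 receptor genes that passed were lower in HSC. Il17ra, the chain common to IL-17 receptors, read 6.89, 7.37 and 6.83 in WT HSC and 6.30, 6.56 and 6.71 in KO HSC. MPP values were 8.30, 8.13 and 8.35 in WT and 7.71, 7.96 and 8.36 in KO. The populations did not overlap, and within HSC all KO arrays lay below all WT arrays. HSC and MPP differed by -1.36 (SE 0.15, interval -1.69 to -1.04; 2.57-fold; adjusted p = 0.000444 by limma).

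Il17rb, which pairs with Il17ra to bind IL-25, read 4.56, 4.80 and 4.70 in WT HSC and 4.82, 4.53 and 4.18 in KO HSC, against 5.94, 5.89 and 6.34 in WT MPP and 5.72, 6.80 and 5.74 in KO MPP. No HSC array reached the lowest MPP array. The difference was -1.48 (SE 0.20, adjusted p = 0.00201 by limma). As for Il18r1, all HSC values lay under the filter value and the gene was kept only through MPP, so no fold is given. The chains Il17rc, which joins Il17ra to bind IL-17A and IL-17F, and Il17re, which joins it to bind IL-17C, did not pass, at 0.16 (interval -0.12 to 0.44) and -0.31 (interval -0.70 to 0.07).

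In the class II family, Il10rb, the chain shared by the receptors for IL-10, IL-22 and interferon lambda, read 5.75, 5.59 and 6.50 in WT HSC and 5.71, 5.19 and 5.73 in KO HSC. In MPP it read 7.45, 7.42 and 8.29 in WT and 8.52, 7.72 and 8.02 in KO. All HSC arrays were below all MPP arrays, and the difference was -2.16 (SE 0.23, interval -2.66 to -1.66; 4.46-fold; adjusted p = 0.000394 by limma). Il10ra, the chain that binds IL-10, had a median of 5.29 in HSC and 5.81 in MPP. It differed by -0.58 (interval -0.93 to -0.24, adjusted p = 0.0609) and was lower in HSC in 5 of 6 mice. It passed in 5 of 14 alternatives, where its adjusted p ran from 0.0347 to 0.210.

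Il22ra1, the IL-22 binding chain, differed by 0.30 (interval -0.01 to 0.60) and was higher in HSC in 6 of 6 mice without passing (adjusted p = 0.262). Il20rb, a chain of the receptors for IL-19, IL-20 and IL-24, ran from 4.97 to 5.93 in HSC and from 5.53 to 8.12 in MPP, and its difference was -0.73 (interval -1.59 to 0.13).

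Of the common gamma group, Il4ra, the IL-4 binding chain also used by IL-13, read 6.97, 7.38 and 7.32 in WT HSC and 7.52, 7.89 and 7.23 in KO HSC. MPP values were 8.32, 7.88 and 8.19 in WT and 8.05, 7.82 and 8.09 in KO. Only the HSC array of KO mouse 11 reached into the MPP range. The difference was -0.68 (SE 0.14, interval -0.99 to -0.36; 1.60-fold; adjusted p = 0.0204 by limma), below 0 in 5 of 6 mice. The call ended with the mouse as a block (adjusted p = 0.0923) and without mouse 2, 3, 64 or 70 (-0.65, -0.57, -0.68 and -0.57, adjusted p 0.0871, 0.104, 0.0937 and 0.0866).

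Il15ra, which presents IL-15 to neighbouring cells, had a median of 8.05 in HSC and 7.55 in MPP. It was higher in HSC in 6 of 6 mice, by 0.46 (interval 0.11 to 0.81), and did not pass (adjusted p = 0.140). Il9r, the IL-9 receptor, differed by 0.25 (interval -0.03 to 0.52).

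None of the 7 tested genes of the common beta and the gp130 and IL-12 groups passed. Il27ra, the IL-27 receptor chain, was the receptor whose HSC arrays (5.76 to 6.40, median 5.91) all lay above the MPP arrays (5.33 to 5.62, median 5.54). Its difference of 0.46 (interval 0.20 to 0.73) just missed the threshold (adjusted p = 0.0532 by limma). It passed in 3 of 14 alternatives, namely trended moderation (0.0424), array weights (0.0405) and without mouse 70 (0.0463).

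For Csf2rb, the common beta chain, the difference was -0.60 (interval -1.30 to 0.11), and for Il3ra, the IL-3 binding chain, it was -0.17 (interval -0.52 to 0.18). The shared signalling chain gp130, Il6st, ran from 4.78 to 7.55 in HSC and from 5.91 to 6.90 in MPP (-0.35, interval -1.20 to 0.49), and Il6ra, the IL-6 binding chain, differed by -0.23 (interval -0.66 to 0.19). Intervals of this width leave differences of either sign possible for these genes. Il12rb1 and Il12rb2, the chains of the IL-12 receptor, differed by 0.14 (interval -0.18 to 0.45) and -0.20 (interval -0.99 to 0.59).

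The 11 receptors below the filter had means of 3.52 to 4.91 (log2) and single values of 3.14 to 5.97. They were Il2ra, Il2rb, Il21r, Il13ra1, Il13ra2, Il5ra, Il23r, Il31ra, Il20ra, Il22ra2 and Il17rd. With no filter, 0 of them passed in any comparison, 0 had an unadjusted p under 0.05 in HSC against MPP over both genotypes, and their differences there were at most 0.39 in size. Scanner detection calls were not used here, so a low value is not evidence that a transcript is absent.

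Some markers of other cell types moved with the populations too, where 2.92% of all genes were lower in HSC and 1.93% higher. The mean of 5 B cell markers was 5.50 to 5.94 in HSC and 6.19 to 6.81 in MPP, with Ebf1 and Cd79a of the 4 tested lower in HSC (-2.07 and -0.98). Ms4a1, a marker of mature B cells, lay below the filter. For 8 monocyte and macrophage markers it was 5.65 to 6.43 and 6.27 to 6.72, with Ccr2, Ly6c2 and Csf1r of 8 lower in HSC. Ccr2, with means of 4.42 in HSC and 6.70 in MPP, entered the test only through MPP and adds nothing to that count as support. Lyz2, Fcgr1, C1qa and C1qb had values of 0.46, 0.22, 0.20 and 0.18 (HSC minus MPP) and did not pass.

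For 8 T and NK cell markers the range was 4.81 to 5.16 in HSC and 5.08 to 5.34 in MPP. Of 4 tested, Nkg7 was lower in HSC (-2.18), while Cd4 (0.16), Cd3e (-0.01) and Cd8a (-0.06) did not pass. Cd3d, Cd3g, Klrb1c and Ncr1 lay below the filter. For 8 mast cell and basophil markers it was 4.95 to 5.49 and 5.22 to 5.87, with Cpa3 of 5 lower. Pf4 of the megakaryocyte markers (2.11, adjusted p = 0.000444 by limma) and Aqp1 of the erythroid markers (0.51, 0.0356) were higher in HSC. Pecam1 of the endothelial and stromal markers was lower (-1.20, 0.0275), while Emcn (0.57), Col1a1 (0.17) and Cxcl12 (0.01) did not pass. Of the tested dendritic cell, eosinophil and type 2 innate lymphoid markers, 0 of 3, 0 of 2 and 0 of 2 passed. The mean of 9 mature neutrophil markers varied widely between arrays, from 5.64 to 8.07 in HSC and from 4.83 to 7.10 in MPP, and 0 of 8 tested passed. Several of these genes are also made by early progenitors, and their part in the receptor differences was not tested.

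Within each genotype the same direction was seen. In WT mice all 7 receptors passed lower and 0 higher (background 1.32% lower, 0.746% higher, 2.07% in either direction), with a median over the 24 of -0.09 against 0.03 for all genes. Il18r1 and Il17rb were tested only through their MPP values and add nothing to that count as support. The differences were -2.58 for Il1r1 (adjusted p = 0.00129), -1.23 for Il17ra (0.0139), -2.10 for Il18rap (0.0175), -1.78 for Il10rb (0.0200), -1.37 for Il17rb (0.0377), -2.07 for Il18r1 (0.0460) and -0.91 for Il4ra (0.0464). With the mouse as a block, 4 receptors and 180 genes passed in place of 7 and 302, and Il18rap (0.0787), Il17rb (0.0796) and Il4ra (0.162) were lost.

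With 3 mice a group, single mice decided several of these WT calls. Without mouse 3, Il10rb (0.128), Il17ra (0.146), Il17rb (0.209), Il18rap (0.0661) and Il4ra (0.348) lost theirs, and without mouse 12 Il10rb (0.113), Il17rb (0.148), Il18r1 (0.136), Il18rap (0.139) and Il4ra (0.106) did. Without mouse 64, Il17ra (0.175), Il17rb (0.274), Il18r1 (0.326), Il18rap (0.166) and Il4ra (0.261) did. The WT calls of Il18r1 and Il4ra also ended without KO mouse 2 (0.0710 and 0.0776), KO mouse 70 (0.0857 and 0.0606) and the HSC array of KO mouse 2 (0.0510 and 0.0577), and that of Il18r1 without KO mouse 11 (0.0883). A fit of only the WT arrays ended the calls of Il10rb (0.0542), Il18r1 (0.134) and Il4ra (0.0795), and one with no filter those of Il18r1 (0.0528) and Il4ra (0.0506). Il4ra also lost its call with a second quantile normalization (0.0882) and trended moderation (0.0815). Il1r1 passed in 16 of 16 alternatives. The WT differences themselves stayed below 0 in all alternatives. They ran from -1.83 to -1.72 for Il10rb, -1.47 to -1.09 for Il17ra and -1.51 to -1.24 for Il17rb. For Il18r1 the range was -2.46 to -1.86, for Il18rap -2.30 to -1.98 and for Il4ra -1.12 to -0.69.

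In KO mice 5 receptors passed lower and 0 higher (background 0.739% lower, 0.520% higher, 1.26% in either direction), with a median of -0.47 against 0.05 for all genes. They were Il1r1 (-2.67, adjusted p = 0.00131), Il10rb (-2.54, 0.00374), Il17ra (-1.49, 0.00599), Il17rb (-1.58, 0.0245) and Il18r1 (-2.35, 0.0343). Of these, Il17rb and Il18r1 again add nothing to the count as support, having entered the test only through MPP. Il18rap was at -0.49 (0.644) and Il4ra at -0.44 (0.409). The block ended the KO call of Il17rb (0.0672).

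The KO calls of Il1r1 and Il10rb held in 16 of 16 alternatives. That of Il17ra ended without mouse 11 (0.0661) and with only the KO arrays (0.0562), which also ended that of Il17rb (0.149). For Il18r1 the call ended without mouse 2 (0.215), 11 (0.201), 64 (0.0795) or 70 (0.123) and without the HSC array of KO mouse 2 (0.109). For Il17rb it ended without any 1 of the 6 mice, at 0.0534 without mouse 2, 0.0604 without 3, 0.0920 without 11, 0.0619 without 12, 0.0578 without 64 and 0.0921 without 70. That Il18rap and Il4ra passed in WT and not in KO does not show that the genotypes differ, and the interaction that tests it passed for neither.

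**Figure D3:**
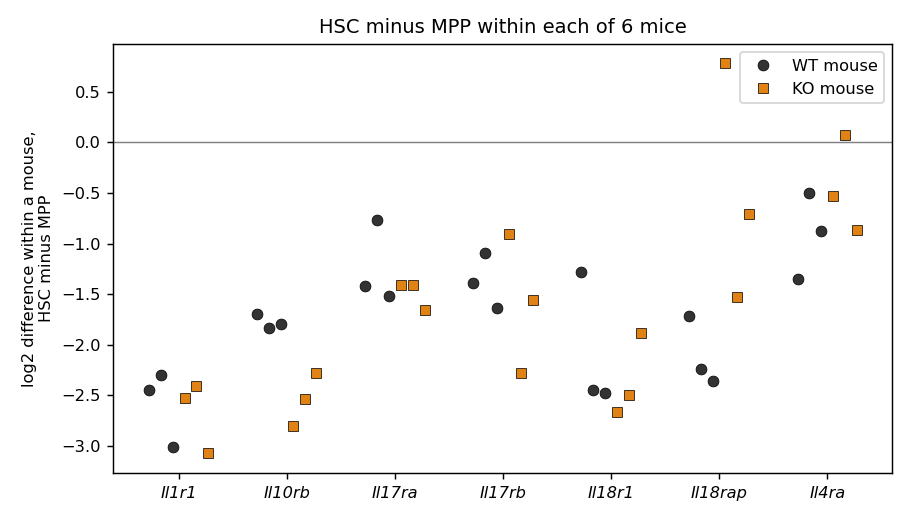
HSC minus MPP difference (log2) within each of the 6 mice for the 7 receptor genes, WT and KO mice marked apart. Il1r1, Il18r1, Il10rb, Il17ra and Il17rb lie below 0 in 6 of 6 mice, Il18rap and Il4ra in 5 of 6, with Il18rap at 0.78 in KO mouse 2 and Il4ra at 0.07 in KO mouse 11.

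Between KO and WT, 0 of the 24 receptors passed the threshold in HSC and 0 in MPP by limma, where 0% of all genes passed. Nfat5 itself, the deleted gene, did not pass either. Its means were 7.69 in KO and 8.60 in WT HSC, and 7.16 in KO and 8.03 in WT MPP. The lack of calls therefore does not show that no receptor changed. At an unadjusted p under 0.05 there were 2 receptors among 919 genes in HSC and 0 among 466 in MPP. Over both populations, with the mouse as the unit, 0 receptors and 0 genes passed, and 0 receptors and 650 genes lay under that unadjusted p. Medians over the receptors were -0.11 in HSC and 0.07 in MPP (log2, KO minus WT), and those over all genes 0.02 and 0.00. Differences ran from -0.78 to 0.94 in HSC and from -0.77 to 0.77 in MPP. The median 95% interval, before adjustment, reached 0.61 to either side, so changes of that size in a typical receptor could not have been told from 0. Larger ones could also fail after adjustment, as Il18rap did in HSC at 0.94 (adjusted p = 0.770 by limma).

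**Figure D4:**
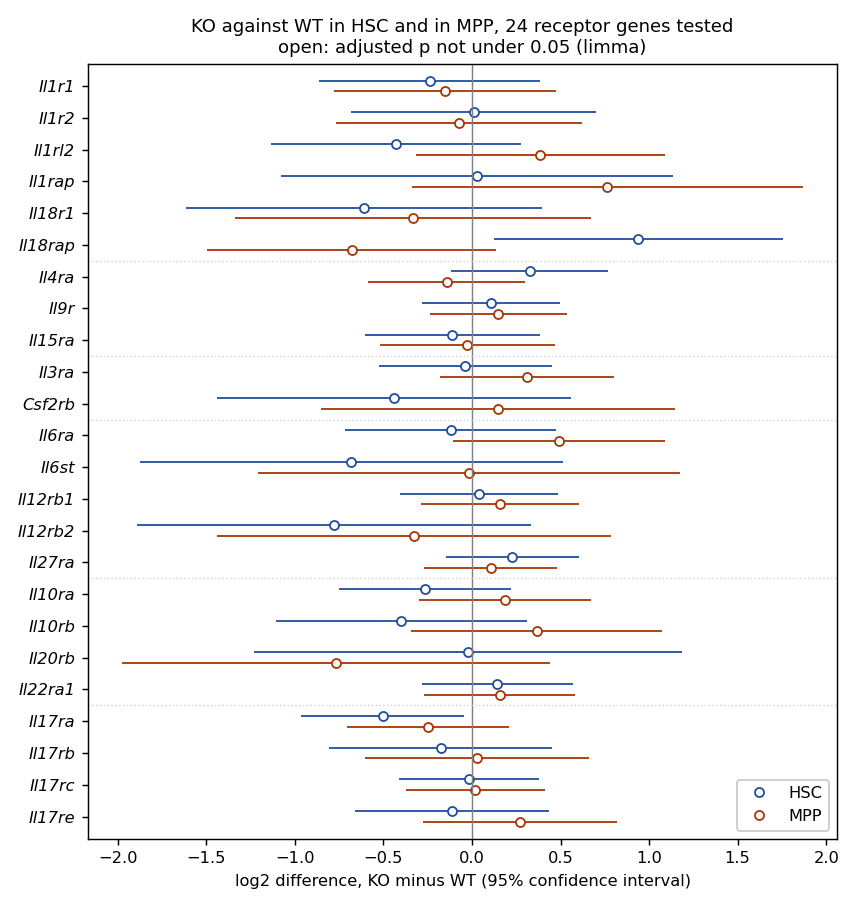
KO minus WT differences (log2) of the 24 receptor genes in HSC and in MPP, with 95% confidence intervals from limma. In HSC the intervals of Il18rap (0.94) and Il17ra (-0.51) leave out 0 before adjustment, in MPP none does, and 0 receptors passed after adjustment.

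In HSC, groups of 3 against 3 did not overlap for 3 of the 24 receptors, where 8.87% of all genes did not (5.15% higher and 3.72% lower in KO), and in MPP for 0, where 9.49% did not. Il18rap was the higher of them in KO HSC, at 7.25, 6.05 and 6.43 against 5.42, 5.73 and 5.77 in WT. The KO minus WT difference was 0.94 (SE 0.37, interval 0.12 to 1.75, unadjusted p = 0.0281, adjusted p = 0.770 by limma), and 0.60 without the HSC array of KO mouse 2, the highest of the 3. In MPP the same gene was at -0.68 (SE 0.37, interval -1.49 to 0.14).

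The interaction, KO minus WT in HSC less the same in MPP, was 1.62 for Il18rap (SE 0.52, interval 0.46 to 2.77, unadjusted p = 0.0105, adjusted p = 0.995 by limma), the 1 receptor among 658 genes under an unadjusted p of 0.05. Again 0% of all genes passed. Without the HSC array of KO mouse 2 it was 1.28. The next receptors were Il1rl2 at -0.82 (interval -1.81 to 0.18) and Il10rb at -0.77 (interval -1.77 to 0.24), and Il4ra was at 0.47 (interval -0.16 to 1.10).

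Il17ra and Il12rb2 were the other receptors without overlap in HSC, both with lower values in KO. Il17ra differed by -0.51 (SE 0.21, interval -0.96 to -0.05, adjusted p = 0.790), by -0.25 in MPP and by -0.38 over both populations (interval -0.76 to 0.01). Il12rb2 read 6.50, 6.94 and 6.37 in WT HSC and 5.68, 5.50 and 6.29 in KO HSC, a difference of -0.78 (SE 0.50, interval -1.89 to 0.33). In MPP it read 5.55, 7.45 and 6.73 in WT and 5.77, 7.27 and 5.71 in KO, so mice of 1 genotype differed there by more than the genotypes.

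Further genes with the lowest p were given their values by rule. In HSC, Il4ra was at 0.33 (interval -0.12 to 0.77). Il1rl2 read 5.21, 6.15 and 5.86 in WT HSC and 4.79, 5.51 and 5.64 in KO HSC (-0.43, interval -1.13 to 0.28, or -0.17 when KO mouse 2 was left out in HSC), and 5.44, 6.20 and 5.78 in WT MPP and 6.02, 6.63 and 5.93 in KO MPP. WT and KO overlapped in both populations.

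In MPP, Il6ra read 5.05, 5.11 and 5.50 in WT and 6.14, 5.62 and 5.38 in KO (0.49, interval -0.10 to 1.09), with HSC values of 5.23, 5.14 and 5.51 in WT and 5.73, 4.78 and 4.999 in KO. Il1rap read 4.93, 5.24 and 4.76 in WT MPP and 6.49, 4.89 and 5.85 in KO MPP (0.77, interval -0.34 to 1.87). In HSC Il1rap read 5.58, 6.14 and 4.59 in WT and 4.69, 6.25 and 5.46 in KO. Every one of these group pairs overlapped.

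Il3ra read 7.34, 7.63 and 6.96 in WT MPP and 7.84, 7.87 and 7.16 in KO MPP (0.31, interval -0.18 to 0.80), and 7.46, 7.24 and 7.26 in WT and 7.40, 7.21 and 7.22 in KO HSC. Il20rb read 6.09, 8.12 and 5.53 in WT MPP and 6.11, 5.78 and 5.55 in KO MPP (-0.77, interval -1.98 to 0.44), and 5.52, 4.97 and 5.93 in WT and 5.90, 5.28 and 5.17 in KO HSC. The Il20rb value in MPP rests on WT mouse 12, and without that mouse it was 0.0037. All of these receptors had adjusted p of at least 0.881 in HSC and 0.9999 in MPP by limma.

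Of the other haematopoietic cytokine receptors, 15 were listed, 13 measured and 10 tested, and 4 were lower in HSC over both genotypes and 0 higher, where 2.92% of all genes were lower and 1.93% higher (median 0.12). Flt3, the FLT3 ligand receptor used to define MPP, ran from 4.95 to 6.88 in HSC and from 8.64 to 9.29 in MPP (-3.35, SE 0.26, adjusted p = 5.03e-05 by limma). Il7r, the IL-7 receptor chain, ran from 4.37 to 4.90 and from 6.395 to 7.85 (-2.55, SE 0.26, adjusted p = 0.000348), with all HSC values under the filter value. Neither population's range reached the other's for these genes. Il7r entered the test only through its MPP values, and Flt3 is also among the MPP markers. Neither call therefore adds to the count of this list as support.

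Csf3r, the G-CSF receptor, differed by -0.54 (SE 0.11, adjusted p = 0.0197) and Csf1r, the M-CSF receptor, by -0.60 (SE 0.14, adjusted p = 0.0405). The block ended both calls (0.0599 and 0.132), and a second quantile normalization that of Csf3r (0.0737), which trended moderation left at 0.05005. Csf3r also lost its call without mouse 2 (0.0617), 11 (0.0942), 12 (0.0714) or 64 (0.106), and Csf1r without mouse 3 (0.134), 11 (0.138), 12 (0.0979), 64 (0.177) or 70 (0.124).

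Of 18 tested JAK and STAT transducers and feedback genes (21 listed, 19 measured) 1 was higher in HSC and 0 lower (all genes 1.93% and 2.92%), with a median of 0.00. It was Cish, the STAT5-induced inhibitor of cytokine signalling, which ran from 5.80 to 7.27 in HSC and from 4.96 to 6.07 in MPP (1.03, SE 0.18, adjusted p = 0.00745 by limma). In KO its difference was 1.75 (adjusted p = 0.00786) and in WT 0.31 (interval -0.25 to 0.87, adjusted p = 0.632), and the interaction was 1.43 (SE 0.36, adjusted p = 0.884). None of the 10 tested transducers of IL-1, IL-18 and IL-17 signals (12 listed) passed, 2 had an unadjusted p under 0.05 (2869 of all 14620 genes did), and their median was 0.07.

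Among 24 tested ligands and soluble inhibitors (38 listed, 37 measured) 1 was lower and 1 higher in HSC, near the 2.92% and 1.93% of all genes, with a median of 0.11. Il12a, the p35 chain of IL-12, ran from 4.93 to 6.81 in HSC and from 8.05 to 9.14 in MPP (-2.64, SE 0.20, adjusted p = 3.91e-05 by limma). Il4 ran from 4.92 to 6.53 and from 3.77 to 5.84 (1.59, SE 0.33, adjusted p = 0.0183). Its MPP mean lay under the filter value, so Il4 entered the test only through its HSC values. That call adds nothing to the count of this list as support. The Il4 call ended with the block (0.0578) and without mouse 11 (0.0715), 12 (0.0899), 64 (0.103) or 70 (0.0903).

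None of these lists had a gene that passed between KO and WT in HSC or in MPP. The lowest p in HSC belonged to Cish, with group means of 7.07 in KO and 5.87 in WT (1.20, SE 0.25, adjusted p = 0.437 by limma), Pias1, a STAT inhibitor (-0.56), Il12a (1.22, SE 0.28, adjusted p = 0.471), Ebi3, a chain of IL-27 (0.28), Flt3 (0.85), Cntfr, the CNTF receptor (0.19), Sigirr, a negative regulator of IL-1 family signals (0.52), and Tollip, an adaptor of the IL-1 receptor complex (-0.46). In MPP they were Stat2 (-0.61), Pias1 (0.36), Epor, the erythropoietin receptor (0.28), Crlf2, the TSLP receptor (0.31), Traf3ip2, which encodes Act1 (0.65), Myd88 (-0.34), Ebi3 (0.56) and Il4 (0.83). In MPP each of these 8 had an adjusted p of 0.9999.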

How the data were processed

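Gene expression was measured on 12 arrays, 1 per mouse and population. NuGEN kits amplified and labelled 300 pg of total RNA from each, per the labels' protocols. The authors deposited a log2 value for every probe set, made with RMA. That tool and limma are named in the submitters' processing notes. RMA is meant to set all arrays to 1 distribution, and it compresses differences of weak transcripts. Deposited medians still differed, with the HSC array above the MPP array in each mouse (5.910 and 5.823 for mouse 64). Over both genotypes 282 genes were higher and 427 lower in HSC. These became 307 and 372 with a second quantile normalization, and 238 and 525 with median centring. Receptors passing numbered 7, 8 and 8 in these settings. The sources used here give no genome build or upstream version, and precision is limited by the number of arrays.

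Of 22142 probe sets, 19527 had 1 gene symbol, 0 several and 2615 none. The probe set with the highest mean stood for each of 19494 genes. The lowest 25% by mean (under 4.96) were left out, and 14620 genes were fitted as 4 group means with limma 3.58.1 (R 4.3.3, statmod 1.5.0), two-sided, Benjamini-Hochberg over all genes, threshold 0.05. The fits were also run on simulated data, with independent arrays, the same spread on every array and known differences between populations only. That run does not check the pairing of arrays by mouse or uneven noise between arrays, and it held no genotype difference. An exact test of 3 against 3 could not go below 0.1.

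The members and gene lists were chosen with earlier results of these data known. Values on every array are given for members that passed between HSC and MPP and for those with the lowest p between genotypes (5 in HSC, 5 in MPP, 3 in the interaction). For other lists, the genes that passed and the 2 with the lowest p are named. Mice pair the HSC and MPP arrays, as the labels give the mouse, and deviations of the arrays of a mouse correlated with r of 0.032 to 0.091 across genes. Alternatives were other filters, probe set means, normalizations, moderation, array weights, only the arrays compared, the mouse as a block, each mouse left out, and leaving out KO mouse 2 in HSC only. Promoter windows and gene order are RefSeq's, GRCm38.p6.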

Additional observations from a re-analysis of the deposited data

How the results depend on the processing

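Over both genotypes, Il1r1, Il10rb, Il17ra, Il17rb and Il18r1 kept their call under every alternative in which they were tested (a filter at 50% removed Il18r1 and Il17rb). Il18rap and Il4ra passed in 10 of 15. With 1 mouse left out in turn, the receptors passing over both genotypes numbered 6 for each mouse (7 with all mice) and the genes 379 to 524 (709). The 6 were not always among the same 7, since Il18rap and Il4ra were both lost without mouse 64 and without mouse 70. Il10ra was gained without mouse 64 (adjusted p = 0.0434 by limma), and Il27ra, higher in HSC, without mouse 70 (0.0463). The ranges within each genotype follow. With 1 mouse left out, 2 to 6 receptors (7) and 70 to 297 genes (302) passed in WT, 2 to 4 (5) and 57 to 168 (184) in KO, and 0 to 1 genes (0) between KO and WT in HSC. With the mouse as a block, 4 receptors and 180 genes passed in WT and 113 genes in KO, and it changed no call other than those given. With only the arrays compared, 4 receptors passed in WT, and 3 receptors and 79 genes in KO. A filter at 50% left 3 receptors in KO, and without the HSC array of KO mouse 2 there were 106 genes in KO, 347 in WT, and 626 genes and 7 receptors over both genotypes. Without mouse 11 the difference of Il18rap between HSC and MPP in KO turned from -0.49 to 0.034 (-1.12 to 0.034 over the mice left out), and without mouse 12 that of Il20rb between KO and WT in MPP from -0.77 to 0.0037 (-1.29 to 0.0037). Of 906 single-gene values compared, 821 kept their direction and side of the threshold, 75 lost and 8 gained a call, and 2 reversed. The causes were not tested. Weak signal near the lower end of the array's range limits the 11 receptors below the filter.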
